A study of Saccharomyces cerevisiae with 4 samples.

Results

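The genes described here encode the enzymes of glycolysis after the hexose kinases, the fermentative enzymes that turn pyruvate into ethanol, and the branches to acetate, to mitochondrial acetyl-CoA and to glycerol. They were chosen by name, as probes whose systematic name on the array is the open reading frame of 1 of 37 listed genes, and all 37 had a probe among the 6256 gene probes. RNA of *esl1Δ esl2Δ* cells was compared with wild-type RNA by competitive hybridization, in which both RNAs, each with its own dye, bind to the same spots. Both strains were MATa haploids of the W303-1A background (strain Y52 in the labels, with *RAD5* and the alleles *ura3-1*, *trp1-1*, *ade2-1*, *leu2-3, 122* and *can1-100*), and in the mutant *KAN* replaced *ESL1* and *NAT* replaced *ESL2*. Cultures were in log phase in YPD (1% yeast extract, 2% peptone and 2% glucose) at 30°. There were 3 biological replicates, each on 1 array with the mutant in Cy5 (red) and the wild-type in Cy3 (green), and the RNA of replicate 3 was hybridized again with the dyes exchanged, so that replicate 3 is the mean of 2 arrays. Whether the replicates came from separate clones is not given in the sources used here, and *p*-values measure the spread between these 3 replicates only.

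Glycolysis splits a hexose phosphate into triose phosphates and oxidizes these to pyruvate with a gain of ATP. In high glucose, budding yeast ferments most of this pyruvate to ethanol by pyruvate decarboxylase and alcohol dehydrogenase even when oxygen is present, and this restores the NAD+ that glyceraldehyde-3-phosphate dehydrogenase uses. Glycerol made from dihydroxyacetone phosphate is a further outlet for NADH, aldehyde dehydrogenases divert acetaldehyde to acetate, and the pyruvate dehydrogenase complex opens the route into the mitochondrial citrate cycle. Several steps are carried by isoenzymes: a major form is made during fermentation, and minor forms are known to be repressed by glucose or induced by stress.

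The arrays had a median spot intensity of 1660 to 3378 in green and 3990 to 5186 in red over gene spots, and no spot was saturated. The deleted genes were low in every replicate, with log2 ratios of mutant over wild-type of −4.77, −4.33 and −4.41 for *ESL1* and −3.65, −3.99 and −3.65 for *ESL2*. All 5 MATa marker genes examined were well above background in both strains on every array, as were 2 of 4 MATα genes. The summed raw intensity of the MATa genes was 52504 to 99501 in the mutant and 53144 to 132250 in the wild-type. That of the MATα genes was 986 to 1646 and 849 to 1626. These ranges take red and green intensities together. After normalization the mean log2 ratios of the MATa genes were −0.73 (*MFA1*), −0.51 (*BAR1*), −0.32 (*STE2*), −0.30 (*MFA2*) and −0.073 (*STE6*). Their adjusted *p* from limma was 0.168 or more. Replicate 3 stands apart. Across all genes, which are not independent replicates, the log2 ratios of replicates 1 and 2 correlated with r = 0.68, those of replicate 3 with r = 0.10 and 0.21, and those of both arrays of replicate 3 with r = 0.84. Over the 37 genes the same values were 0.46, −0.15, −0.20 and 0.56. The probes of all 37 genes were well above background in both strains on all 4 arrays. Of these, 23 were in the brightest 10% of gene probes, so that the treatment of bright spots bears on most of their values.

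No gene of the group changed by the test. With limma and Benjamini-Hochberg adjustment over 6254 genes, 0 of 37 had an adjusted *p* below 0.05, against 0.112% of all genes, and the lowest adjusted *p* was 0.198. By unadjusted *p*, 3 of the 37 were below 0.05 (*GPD2*, *ADH5* and *GUT1*), against 13.3% of all genes. None of the 37 had a mean past 1.5-fold in either direction, whereas 3.76% of all genes did, and 0.799% of all genes were past 2-fold. A mean past 1.2-fold was found for 7 of 37 (23.0% of all genes), *ADH2*, *GUT1* and *ALD4* upward and *GPD2*, *ADH5*, *ALD5* and *CDC19* downward. In single replicates, 1.5-fold was passed by 3 genes in replicate 1 (*ALD4*, *ALD5* and *GUT2*; 6.91% of all genes), by 2 in replicate 2 (*ALD5* and *GPD2*; 11.4%) and by 2 in replicate 3 (*GPM1* and *ADH2*; 9.93%), and of these only *ALD5* did so in more than 1 replicate. The mean log2 ratios ran from −0.49 for *GPD2* to 0.35 for *ADH2*, with a median of −0.079 (−0.0047 over all genes), and the median SD over 3 replicates was 0.24 (0.20 over all genes). For 30 of 37 the mean was smaller in size than the SD, as it was for 65.4% of all genes. By sign with loess, 3 were higher in all 3 replicates (*ALD6*, *GUT1* and *GUT2*; 18.7% of all genes) and 5 were lower in all 3 (*CDC19*, *ADH1*, *ADH5*, *ACS2* and *GPD2*; 18.5% of all genes). Ratios of total RNA do not tell a lower amount per cell from fewer cells that hold the transcript. The other 29 genes had replicates on both sides of 0, as the plot of the log2 ratios by array shows.

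**Figure D1:**
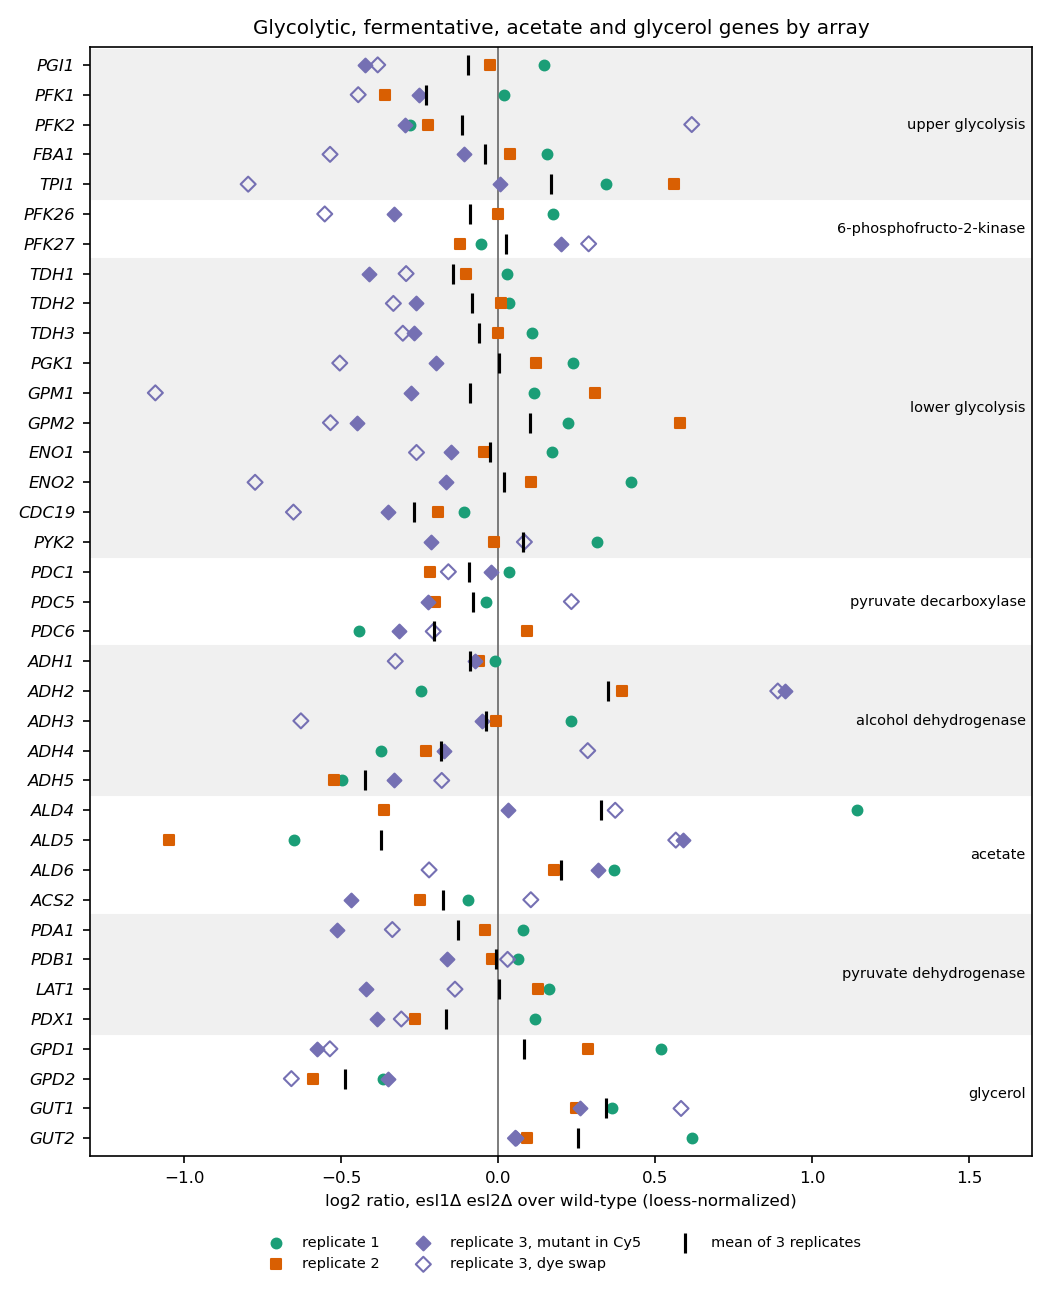
Log2 ratios of mutant over wild-type (x axis, loess-normalized) of the 37 genes (y axis, in pathway order) on each of the 4 arrays, with the mean of the 3 replicates as a bar. The means lie between −0.49 and 0.35, and the 2 arrays of replicate 3 (filled and open diamonds) lie apart for genes such as *PFK2*, *TPI1* and *GPM1*.

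The upper part of glycolysis held 5 genes, and none was on the same side of 0 in all 3 replicates. *PGI1* (YBR196C) encodes phosphoglucose isomerase, and its log2 ratios in replicates 1 to 3 were 0.15, −0.026 and −0.40, while *FBA1* (YKL060C), for fructose-bisphosphate aldolase, had 0.15, 0.036 and −0.32. Replicate 3 was the lowest for both. *PFK1* (YGR240C) and *PFK2* (YMR205C) encode the subunits of phosphofructokinase, the main control point of the pathway. The log2 ratios of *PFK1* were 0.019, −0.36 and −0.35 and those of *PFK2* were −0.28, −0.22 and 0.16. Replicate 2 was low for both, whereas they lay on opposite sides of 0 in replicate 3. The value of *PFK2* there is the mean of −0.30 with the mutant in Cy5 and 0.62 on the dye swap, and its 3 spots agreed on each of these arrays (−0.39 to −0.23 and 0.59 to 0.63). In replicate 1 the 3 spots of *PFK2* lay further apart, from −0.73 to 0.082. *TPI1* (YDR050C), for triose phosphate isomerase, had 0.34, 0.56 and −0.40, with 0.0053 and −0.80 on both arrays of replicate 3. The means of the 5 genes ran from −0.23 (*PFK1*) to 0.17 (*TPI1*), and the adjusted *p* from limma was 0.494 or more.

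The kinases Pfk26 and Pfk27 make fructose 2,6-bisphosphate, an allosteric activator of phosphofructokinase. *PFK26* (YIL107C) had log2 ratios of 0.17, −0.00099 and −0.44, and *PFK27* (YOL136C), which glucose is known to induce, had −0.053, −0.12 and 0.24. In replicate 3 they lay on opposite sides of 0, and both arrays of that RNA gave the same order (−0.33 and −0.55 for *PFK26*, 0.20 and 0.29 for *PFK27*). The means of −0.090 ± 0.32 and 0.023 ± 0.19 (SD, n = 3) were smaller than their spread.

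In the lower part, the 3 genes of glyceraldehyde-3-phosphate dehydrogenase stayed close to each other in every replicate. *TDH3* (YGR192C), the major isoenzyme in growing cells, had log2 ratios of 0.11, −0.00091 and −0.29. *TDH2* (YJR009C) had 0.035, 0.0094 and −0.30 and *TDH1* (YJL052W), an isoenzyme linked to stationary phase and stress, had 0.028, −0.10 and −0.35. Each was nearer to 0 in replicates 1 and 2 and lowest in replicate 3. The difference between *TDH1* and *TDH3* was −0.079, −0.10 and −0.067, a mean of −0.083 ± 0.018 (SD, n = 3; *p* = 0.25 in the two-sided exact sign-flip permutation test, the smallest value 3 replicates allow), and that between *TDH2* and *TDH3* was −0.024 ± 0.043. On the first array and the dye swap of replicate 3, *TDH1* minus *TDH3* was −0.14 and 0.010. The 95% interval of the *TDH3* log2 ratio from limma was −0.37 to 0.25. Because the 3 coding sequences are much alike, their probes may share transcripts, which was not tested. This holds also for *ENO1* and *ENO2*, *PDC1* and *PDC5*, and *ADH1* and *ADH2*.

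The other genes of the lower part had means between −0.27 (*CDC19*) and 0.10 (*GPM2*). *PGK1* (YCR012W), for phosphoglycerate kinase, had log2 ratios of 0.24, 0.12 and −0.35. *GPM1* (YKL152C), the phosphoglycerate mutase of glycolysis, had 0.11, 0.31 and −0.69, and its paralog *GPM2* (YDL021W), which is thought to lack the activity, had 0.22, 0.58 and −0.49. Both *GPM* genes were higher in replicates 1 and 2 and lower in replicate 3, where the array and the dye swap gave −0.28 and −1.09 for *GPM1* and −0.45 and −0.53 for *GPM2*. The enolase genes *ENO2* (YHR174W), which glucose induces, and *ENO1* (YGR254W) had 0.42, 0.11 and −0.47 and 0.17, −0.045 and −0.21, so that *ENO2* ranged more widely between replicates. With loess, *CDC19* (YAL038W), the pyruvate kinase of fermenting cells, was the only gene of the lower part that was lower in every replicate. It had −0.11, −0.19 and −0.50, averaging −0.27 ± 0.21 (SD, n = 3; limma adjusted *p* = 0.436). With median centring its log2 ratios were 0.30, 0.48 and −0.33. *PYK2* (YOR347C), the pyruvate kinase that glucose represses, had 0.31, −0.014 and −0.065. The difference *PYK2* minus *CDC19* was positive in all 3 replicates (0.42, 0.18 and 0.44; *p* = 0.25 in the exact sign-flip test), but it was 0.14 on the array of replicate 3 and 0.74 on its dye swap, and it turned to −0.056 with median centring.

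The 15 genes of upper and lower glycolysis were compared by replicate. They were higher in the mutant for 13 of 15 in replicate 1 (50.2% of all genes), for 7 in replicate 2 (49.1%), and lower for 14 in replicate 3 (49.8% of all genes were lower), with *PFK2* the exception. The median log2 ratio was 0.15 in replicate 1, −0.00091 in replicate 2 and −0.35 in replicate 3. On the array and the dye swap of replicate 3 it was −0.26 and −0.45, with 14 and 13 of 15 lower. Gene by gene, however, the log2 ratios on these arrays correlated with r = −0.18 across the 15 genes (0.84 over all genes). The counts and medians by replicate depended on the normalization. With the arrays centred on their median in place of loess, 15 and 14 of 15 were higher in replicates 1 and 2, with medians of 0.50 and 0.50, and 14 of 15 were still lower in replicate 3, with a median of −0.23. With this centring, 3133, 3115 and 2905 of all 6254 genes were higher in replicates 1 to 3. Among the brightest 10% of gene probes it was 506, 510 and 308 of 624. The brightest 10% of all gene probes moved in the same way, from medians of −0.0067 and 0.0089 with loess to 0.24 and 0.37 with median centring in replicates 1 and 2, and from 0.0048 to −0.013 in replicate 3. The part of spot brightness in the values of the 15 genes was not tested.

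**Figure D2:**
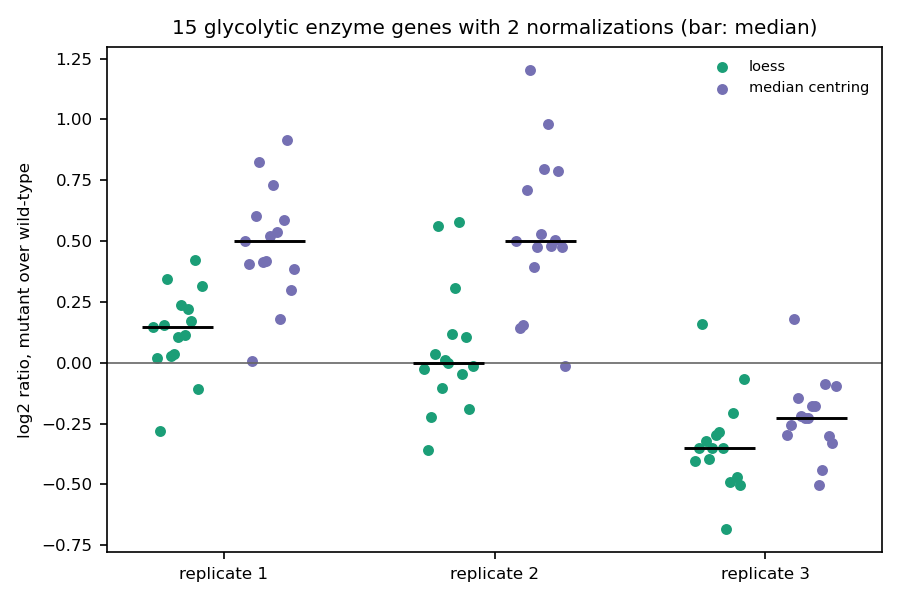
Log2 ratios of mutant over wild-type (y axis) of the 15 glycolytic enzyme genes in each replicate (x axis) after loess and after median centring, with the median as a bar. Replicates 1 and 2 shift upward from medians of 0.15 and −0.00091 to 0.50 and 0.50, whereas the median of replicate 3 stays below 0 with both (*PFK2* alone lies above it).

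The RNA of replicate 3 was measured in both dye orientations. The dye swap and the first array differed by a median of 0.22 in log2 ratio over the 37 genes, against 0.15 over all genes and 0.19 over the brightest 10%. A difference above 0.5 was seen for 7 of 37, against 2.7% of all genes and 7.72% of the brightest 10%. These were *PFK2* (0.91, dye swap minus first array), *GPM1* (−0.81), *TPI1* (−0.80), *ENO2* (−0.61), *ADH3* (−0.58), *ACS2* (0.57) and *ALD6* (−0.54). All of them are among the brightest 10%, and of the 14 genes below it 0 differed by more than 0.5. For *ADH3* the first array averages 2 spots that disagreed, at −0.75 and 0.65. Replicates 1 and 2 were hybridized in 1 orientation only. A dye effect and a difference between the strains therefore cannot be told apart there for any of the 37 genes. For 3 genes with a wide spread between replicates both orientations gave nearly the same value, namely *ADH2* (0.91 and 0.89), *ALD5* (0.59 and 0.57) and *GPD1* (−0.58 and −0.54).

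**Figure D3:**
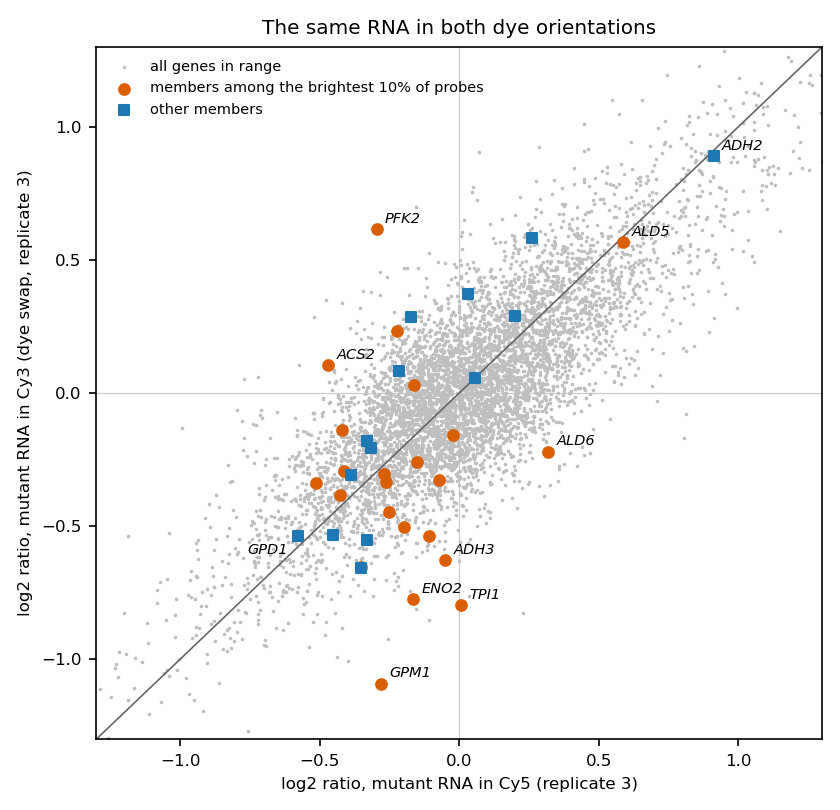
Log2 ratios of mutant over wild-type for the RNA of replicate 3 with the mutant in Cy5 (x axis) and in Cy3 (y axis), for the 37 genes over all genes in grey, with the line of equal values (genes beyond the axes are not drawn). *ADH2*, *ALD5* and *GPD1* lie near the line, and *PFK2*, at −0.30 and 0.62, and *GPM1*, at −0.28 and −1.09, lie far from it.

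At the pyruvate branch point, *PDC1* and *PDC5* had means near 0 and *PDC6* a lower one of −0.20. *PDC1* (YLR044C), the major isoenzyme, had log2 ratios of 0.034, −0.22 and −0.090, and *PDC5* (YLR134W), which rises when *PDC1* is lost or thiamine is scarce, had −0.039, −0.20 and 0.0045. With loess their difference was within ±0.1 in each replicate (−0.073, 0.018 and 0.095), and its sign changed between replicates. The value of replicate 3 is the mean of −0.20 on the first array and 0.39 on the dye swap. With median centring the mean difference was −0.15. *PDC6* (YGR087C), a minor isoenzyme linked to sulfur limitation, had −0.44, 0.093 and −0.26, low in replicates 1 and 3 and above 0 in replicate 2, and its mean difference from *PDC1* of −0.11 ± 0.40 (SD, n = 3) was smaller than the spread.

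Among the alcohol dehydrogenase genes, the fermentative *ADH1* (YOL086C) was the most stable with loess. Its log2 ratios were −0.011, −0.060 and −0.20, with a 95% interval from limma of −0.35 to 0.17. With median centring they were 0.40, 0.56 and −0.040. *ADH2* (YMR303C), the glucose-repressed isoenzyme that oxidizes ethanol, had −0.25, 0.40 and 0.90. The spread was also seen in the raw data. Before normalization, when red was brighter than green over all genes, the median spot intensity was 1182 in the mutant (red) and 870 in the wild-type (green) for replicate 1, and 4321 against 955 for replicate 3. On the dye swap it was 2648 in the mutant (green) and 2369 in the wild-type (red). After normalization both arrays of replicate 3 gave nearly the same log2 ratio (0.91 and 0.89). With a mean of 0.35 ± 0.58 (SD, n = 3; limma adjusted *p* = 0.552), *ADH2* had the highest mean of the group, and it was past 1.5-fold in replicate 3 only. Its mean became 0.65 when replicate 1 was left out (limma adjusted *p* = 0.583) and 0.075 when replicate 3 was (adjusted *p* = 0.781). The difference *ADH2* minus *ADH1* was −0.23, 0.46 and 1.102, a mean of 0.44 ± 0.67 (*p* = 0.5 in the exact sign-flip test over 3 replicates), and this mean was 0.0057 with median centring and 0.81 with the dye as a term.

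*ADH5* (YBR145W), a cytosolic alcohol dehydrogenase, was lower in every replicate, with log2 ratios of −0.50, −0.52 and −0.26, and on both arrays of replicate 3 (−0.33 and −0.18). Its mean of −0.43 ± 0.15 (SD, n = 3) had an unadjusted *p* of 0.011 and an adjusted *p* of 0.247 from limma. Leaving out replicate 3 gave a limma adjusted *p* of 0.035 in a fit in which 10.6% of all genes were below 0.05, and leaving out replicate 1 or 2 gave 0.735 or 0.997. *ADH5* was also lower than *ADH1* in each replicate (−0.49, −0.46 and −0.054; *p* = 0.25 in the exact sign-flip test), but in replicate 3 the difference was −0.26 on the first array and 0.15 on the dye swap. *ADH3* (YMR083W), the mitochondrial isoenzyme, had 0.23, −0.0083 and −0.34, but its 2 spots disagreed on 3 of 4 arrays, from −0.75 to 0.65 on the first array of replicate 3, so that its value is not well fixed. *ADH4* (YGL256W), a zinc-regulated isoenzyme, had −0.37, −0.23 and 0.056, and the array and the dye swap of replicate 3 gave −0.17 and 0.29.

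The acetate branch held the genes with the largest SD of the 37, *ALD5* and *ALD4*. *ALD5* (YER073W), a mitochondrial aldehyde dehydrogenase, had log2 ratios of −0.65, −1.05 and 0.58, lower in replicates 1 and 2 and higher in replicate 3. The value of replicate 2 rests on 1 spot, since the other was an outlier. In replicate 2 the median spot intensity was 43772 in the mutant (red) and 49039 in the wild-type (green), whereas in replicate 3 it was 47835 and 13608 in the same dyes. Before normalization the median over all gene spots was 5186 in red and 3378 in green in replicate 2, and 3990 and 1660 in replicate 3. The mean of −0.37 ± 0.85 (SD, n = 3; limma adjusted *p* = 0.657) was smaller than the spread. Without replicate 3 the log2 ratio was −0.85 with a limma adjusted *p* of 0.0225 (10.6% of all genes were below 0.05 in that fit), and with all 4 arrays in 1 fit, where the dye swap weighs as much as the other 3 arrays together, it was 0.10. *ALD4* (YOR374W), the main mitochondrial isoenzyme, which glucose represses, had 1.14, −0.36 and 0.20. Replicate 1 alone was past 1.5-fold, and without it the mean was −0.080 (adjusted *p* = 0.98 from limma).

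*ALD6* (YPL061W), the main cytosolic aldehyde dehydrogenase of fermenting cells, had log2 ratios of 0.37, 0.18 and 0.050, averaging 0.20 ± 0.16 (SD, n = 3; limma adjusted *p* = 0.513), but it was 0.32 on the first array of replicate 3 and −0.22 on the dye swap. The difference *ALD5* minus *ALD6* was −1.02, −1.23 and 0.53 and that of *ALD4* minus *ALD6* was 0.77, −0.54 and 0.15, so that neither mean exceeded its SD (exact sign-flip *p* = 0.5 and 0.75 over 3 replicates). With loess, *ACS2* (YLR153C), the acetyl-CoA synthetase used on glucose, was lower in each replicate, with −0.10, −0.25 and −0.18 and an average of −0.18 ± 0.076 (limma adjusted *p* = 0.515). Its arrays in replicate 3 lay on both sides of 0, at −0.47 and 0.10. With median centring the log2 ratios of *ACS2* were 0.073, −0.015 and −0.24.

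The pyruvate dehydrogenase complex converts pyruvate into acetyl-CoA inside mitochondria. *PDA1* (YER178W) and *PDB1* (YBR221C) encode the α and β subunits of its first enzyme, *LAT1* (YNL071W) encodes the acetyltransferase core and *PDX1* (YGR193C) the protein that tethers the third enzyme. The log2 ratios were 0.078, −0.042 and −0.42 for *PDA1*, 0.064, −0.018 and −0.066 for *PDB1*, 0.16, 0.13 and −0.28 for *LAT1* and 0.12, −0.27 and −0.35 for *PDX1*. All 4 were above 0 in replicate 1 and all 4 below it in replicate 3, with *PDB1* the nearest to 0 throughout. The means ran from −0.17 to 0.0029, and each was smaller than its SD. Averaged over the 4 genes, the log2 ratio was 0.10, −0.050 and −0.28 in replicates 1 to 3. Minus that of *PDC1*, which competes for the same pyruvate, it was 0.071, 0.17 and −0.19, a mean of 0.017 ± 0.19 (SD, n = 3). Its sign depended on the setting, with a mean of −0.23 after median centring and 0.12 without replicate 3.

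The glycerol branch held 2 of the 3 genes with the lowest *p*. *GPD2* (YOL059W), the glycerol-3-phosphate dehydrogenase linked to redox balance without oxygen, was lower in every replicate, with log2 ratios of −0.37, −0.59 and −0.50. Its mean of −0.49 ± 0.11 (SD, n = 3) was the lowest of the 37 genes, with a 95% interval from limma of −0.75 to −0.22, and limma gave an unadjusted *p* of 0.00498 and an adjusted *p* of 0.198. On the dye swap 1 of its 2 spots was at −0.98 and the other at −0.34, and the first array of replicate 3 gave −0.35. Without replicate 3 the limma adjusted *p* was 0.0482, with 10.6% of all genes below 0.05, and without replicate 1 or 2 it was 0.583 or 0.997. *GPD1* (YDL022W), the isoenzyme induced by osmotic stress, had 0.52, 0.29 and −0.56, higher in replicates 1 and 2 and lower in replicate 3. The difference *GPD2* minus *GPD1* was thus −0.88, −0.88 and 0.052, a mean of −0.57 ± 0.54 (SD, n = 3; *p* = 0.5 in the exact sign-flip test). In replicate 3 it was 0.23 on the first array and −0.12 on the dye swap. *GPD1* and *GPM2* are next to each other in the genome by the order of genes in the R64 assembly. Both were above 0 in replicates 1 and 2 and below it in replicate 3 (−0.56 for *GPD1* and −0.49 for *GPM2*). The same signs by replicate were seen for *FBA1*, *TPI1*, *TDH2*, *PGK1*, *GPM1*, *ENO2* and *LAT1*. *TDH3* and *PDX1*, which are also next to each other, were above 0 in replicate 1 only. An effect of these positions was not tested.

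Both genes of glycerol use were above 0 in every replicate, and neither passed the adjusted test. *GUT1* (YHL032C), for glycerol kinase, had log2 ratios of 0.36, 0.25 and 0.42 and a mean of 0.34 ± 0.088 (SD, n = 3), with a 95% interval from limma of 0.085 to 0.60, an unadjusted *p* of 0.0185 and an adjusted *p* of 0.283. All 4 arrays were above 0, the dye swap the most at 0.58. *GUT2* (YIL155C), for the mitochondrial glycerol-3-phosphate dehydrogenase, had 0.62, 0.093 and 0.055, so that replicate 1 made its mean of 0.25 ± 0.31 (adjusted *p* = 0.516 from limma). Only 3 genes lie between *GUT2* and the deleted *ESL1* in the order of the R64 assembly, and an effect of this position was not tested.

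Of the 15 pairs of isoenzymes compared, 4 kept the sign of their difference in all 3 replicates, namely *TDH1* minus *TDH3*, *ADH5* minus *ADH1*, *PYK2* minus *CDC19* and *GPM2* minus *GPM1*. The last was 0.11, 0.27 and 0.19 but −0.17 on the first array of replicate 3, and it became −0.27 with median centring. For 5 pairs, these and *GPD2* minus *GPD1*, the mean difference was larger than its SD. The 15 pairs rest on only 9 major or first isoenzymes, so that they are not independent of each other. For single genes rather than pairs, 18.7% of all genes were higher and 18.5% lower in all 3 replicates. The exact sign-flip test cannot give a *p* below 0.25 with 3 replicates, and after Benjamini-Hochberg adjustment over the 15 pairs the smallest value was 0.865. The test could therefore not pass the threshold for any pair, and the sizes and SDs are given as a description. The widest differences in a single replicate were −1.23 for *ALD5* minus *ALD6* in replicate 2, where *ALD5* had 1 spot, and 1.102 for *ADH2* minus *ADH1* in replicate 3. The glucose-repressed isoenzymes *ADH2*, *ALD4* and *PYK2* had means of 0.35, 0.33 and 0.078, and each of them was below 0 in at least 1 replicate.

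**Figure D4:**
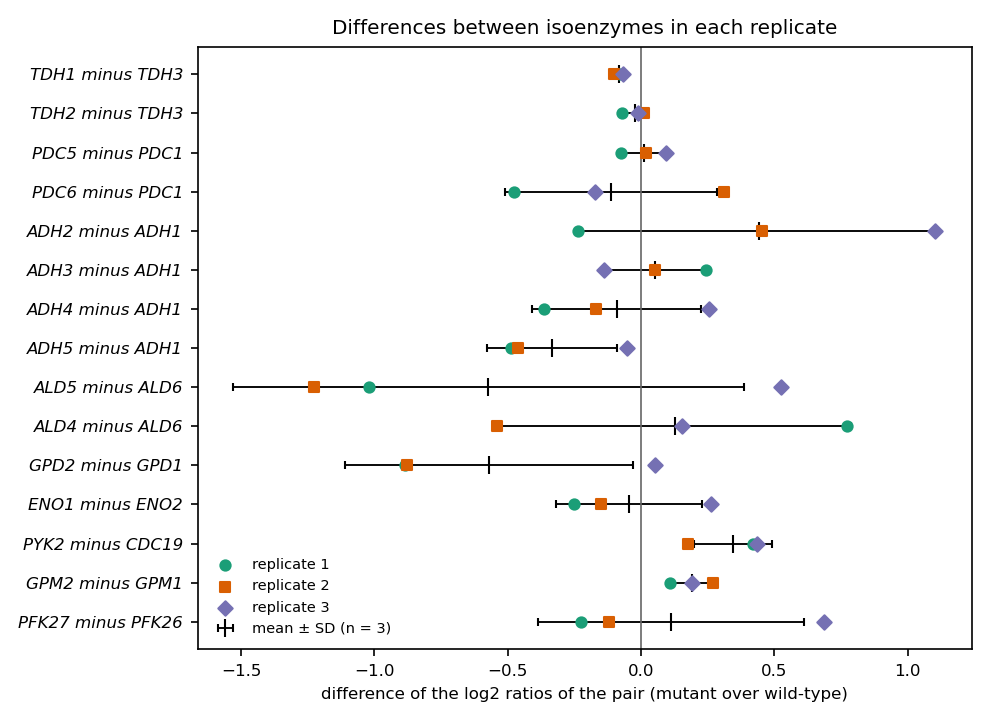
Difference of the log2 ratios of mutant over wild-type between 2 isoenzymes (x axis) for 15 pairs (y axis) in each replicate, with the mean ± SD (n = 3). By replicate, *TDH* and *PDC1*–*PDC5* differences stay within about 0.1 of 0, and those of *ALD5* minus *ALD6* run from −1.23 to 0.53. For *PDC5* minus *PDC1*, replicate 3 averages −0.20 on the first array and 0.39 on the dye swap.

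A further 23 genes of the same pathways, among them regulators of glycolytic transcription, partners of pyruvate dehydrogenase and other enzymes of acetate, alcohol and glycerol metabolism, were taken for comparison, and 0 of them passed the limma test (0.112% of all genes) or had a mean past 1.5-fold (3.76% of all genes). By unadjusted *p*, only *GPP2* was below 0.05, against 13.3% of all genes. Their median of mean log2 ratios was −0.058. *GCR1* and *GCR2*, activators of glycolytic genes, had −0.29, −0.32 and −0.026 and −0.30, −0.31 and −0.12, while *TYE7*, a further activator, had −0.74, 0.047 and 1.04, low in replicate 1 and high in replicate 3. *LPD1*, the third enzyme of pyruvate dehydrogenase, stayed near 0 with −0.075, −0.050 and 0.077. Of the glycerol-3-phosphatases that act after *GPD1* and *GPD2*, *GPP2* was lower in each replicate with −0.29, −0.29 and −0.68 (mean −0.42 ± 0.22, SD, n = 3; limma adjusted *p* = 0.287), and *GPP1* had −0.35, −0.60 and 0.63. *DAK2*, a dihydroxyacetone kinase, had −0.58, −1.14 and 0.86, the same signs by replicate as *ALD5*. These 7 genes were named after their values had been seen.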

How the data were processed

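Total RNA of 3 biological replicates of each strain was measured on 4 two-color Agilent yeast arrays of 1 slide, with 500 ng of RNA labeled per sample. The authors deposited the scanner output of Feature Extraction 10.1.1.1, with unnormalized intensities per spot and channel (median of the spot and of its surroundings), flags of 0 or 1 for outlier, saturated and well-above-background spots, and the log10 of red over green after the software's own dye normalization. The methods name GeneSpring for the analysis, with no normalization or test given in the sources used here. Their series table holds the same log10 ratios for every spot, not turned for the dye swap, so that both give 1 alternative.

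From the intensities, log2 ratios were made in R 4.3.3 with limma 3.58.1 (normexp background correction with an offset of 50, loess within arrays). Control spots and outlier spots were left out and the 1 to 3 remaining spots of each of the 37 probes were averaged (1 spot only for *ALD5* in replicate 2). The dye-swapped ratio changed sign, so that each ratio has the mutant on top, and its mean with the first array stood for replicate 3. The 6254 genes with 3 values were tested by limma for a mean log2 ratio other than 0 (two-sided moderated test with Benjamini-Hochberg adjustment, 5.27 total degrees of freedom). Symbols came from the R64 gene table, and since the array design uses an older build, no coordinates are given. Isoenzymes were compared by the difference of their log2 ratios in each replicate with an exact sign-flip test. Named in full are members of isoenzyme pairs, pyruvate dehydrogenase and glycerol genes, and members with a mean log2 ratio of at least 0.5 or an adjusted *p* below 0.05. The members, the lists and the tests were chosen with earlier results of these data known. Alternatives were the software's own ratio, other background corrections, median centring, other spot filters and averages, the dye swap alone, left out or modelled, channels analysed apart, other fold thresholds and leaving out each replicate. The limits on precision are 3 replicates and, for the brightest probes, the normalization and the dye.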

Additional observations from a re-analysis of the deposited data

How the results depend on the processing

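With 3 replicates, of which replicate 3 stood apart, small changes could not be resolved. The number of the 37 genes with an adjusted *p* below 0.05 was 0 under every alternative run, except that without 1 replicate it ran from 0 to 3 (*ADH5*, *ALD5* and *GPD2* without replicate 3, where 10.6% of all genes were below 0.05). The count past 1.5-fold was 1 with median centring (*TPI1*; 5.12% of all genes) and 1 with a dye term (*ADH2*; 4.77% of all genes). It was 1 without replicate 1 (*ADH2*; 5.96% of all genes), 2 (*ALD4*; 3.2%) or 3 (*ALD5*; 6.97%), and 0 under the others. At a threshold of 1.2-fold it was 7 (23% of all genes) and at 2-fold 0. The median of the 37 genes was 0.19 with median centring and −0.20 with a dye term, and ran from −0.13 to 0.053 without 1 replicate. The pyruvate dehydrogenase mean minus *PDC1* was −0.23 with median centring, −0.039 with the Feature Extraction ratio, −0.036 without the dye swap, −0.033 with a dye term and −0.059 to 0.12 without 1 replicate. With channels apart and no replicate block, 0 of 37 were called. Mean foreground intensities were not used here.

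With the Feature Extraction log ratio, and equally with the series table, the mean turned to −0.041 (*LAT1*), and the difference turned to 0.020 for *TDH2* minus *TDH3*, −0.023 for *PDC5* minus *PDC1* and −0.14 for *ADH3* minus *ADH1*. With a normexp offset of 0 the mean turned to −0.0050 (*PGK1*) and −0.0011 (*LAT1*). With outlier spots kept the mean turned to −0.072 (*PGK1*). With median centring the mean turned to 0.23 (*PGI1*), 0.10 (*PFK1*), 0.11 (*PFK2*), 0.39 (*FBA1*), 0.19 (*TDH1*), 0.22 (*TDH2*), 0.29 (*TDH3*), 0.34 (*GPM1*), 0.33 (*ENO1*), 0.15 (*CDC19*), 0.29 (*PDC1*), 0.15 (*PDC5*), 0.31 (*ADH1*), 0.22 (*ADH3*), 0.090 (*PDA1*) and 0.080 (*PDB1*), and the difference turned to −0.15 for *PDC5* minus *PDC1*, −0.085 for *ADH3* minus *ADH1*, −0.034 for *ALD4* minus *ALD6*, −0.056 for *PYK2* minus *CDC19* and −0.27 for *GPM2* minus *GPM1*. With the dye swap left out the mean turned to 0.028 (*FBA1*), 0.047 (*GPM1*), 0.058 (*ADH3*) and −0.044 (*LAT1*), and the difference turned to −0.086 for *PDC5* minus *PDC1* and −0.018 for *ALD4* minus *ALD6*. With the dye swap alone for replicate 3 the mean turned to 0.038 (*PFK2*), −0.049 (*PGK1*), −0.083 (*ENO2*) and 0.025 (*PDB1*), and the difference turned to −0.0016 for *ADH3* minus *ADH1*, 0.027 for *ADH4* minus *ADH1* and 0.038 for *ENO1* minus *ENO2*. With all 4 arrays in 1 fit with a dye term the mean turned to 0.17 (*PFK2*), −0.25 (*TPI1*), −0.23 (*PGK1*), −0.21 (*GPM2*), −0.33 (*ENO2*), 0.039 (*PDC5*), 0.013 (*ADH4*), 0.10 (*ALD5*), −0.091 (*LAT1*) and −0.23 (*GPD1*), and the difference turned to −0.10 for *ADH3* minus *ADH1*, 0.20 for *ADH4* minus *ADH1*, 0.063 for *ALD5* minus *ALD6* and 0.19 for *ENO1* minus *ENO2*. Without 1 replicate, values that changed sign ran from −0.12 to 0.18 for *PGK1*, −0.18 to 0.26 for *ENO2*, −0.040 to 0.15 for *PYK2*, −0.080 to 0.67 for *ALD4*, −0.076 to 0.14 for *LAT1*, −0.13 to 0.40 for *GPD1*, −0.32 to 0.070 for *PDC6* minus *PDC1*, −0.044 to 0.15 for *ADH3* minus *ADH1*, −0.27 to 0.044 for *ADH4* minus *ADH1*, −0.19 to 0.46 for *ALD4* minus *ALD6*, −0.20 to 0.057 for *ENO1* minus *ENO2*, −0.027 to 0.45 for *TPI1*, −0.14 to 0.40 for *GPM2*, −0.22 to 0.060 for *PGI1*, −0.14 to 0.10 for *FBA1*, −0.22 to 0.086 for *PFK26*, −0.087 to 0.10 for *PFK27*, −0.14 to 0.022 for *TDH2*, −0.14 to 0.053 for *TDH3*, −0.29 to 0.21 for *GPM1*, −0.12 to 0.063 for *ENO1*, −0.17 to 0.11 for *ADH3*, −0.23 to 0.018 for *PDA1*, −0.042 to 0.023 for *PDB1*, −0.028 to 0.056 for *PDC5* minus *PDC1* and −0.17 to 0.28 for *PFK27* minus *PFK26*. The cause of these changes was not tested. Over all alternatives, 9 of the 37 genes kept the sign of their mean.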
